A study of Mus musculus with 24 samples.

Results

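The comparison described here is the genotype by Norrin interaction: the response of Fz4-/- retinal endothelial cells to Norrin-expressing HEK293 cells minus the response of wild type cells to the same line. It used 12 of the 24 arrays of the study, 3 in each of 4 co-culture groups, and every one of the 18193 genes measured by a probe set with a single gene symbol. The groups were wild type cells with control HEK293 cells, wild type cells with Norrin-expressing HEK293 cells, Fz4-/- cells with control HEK293 cells and Fz4-/- cells with Norrin-expressing HEK293 cells. A response is the mean of the Norrin arrays minus the mean of the control arrays of a genotype, in log2 units. A difference of responses above 0 is called higher here, meaning that the Fz4-/- response lay above the wild type response, and a difference below 0 is called lower.

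Expression was measured on Affymetrix mouse arrays in immortalised mouse retinal endothelial cell lines. All lines came from adult animals of both sexes (mixed gender in the labels, background mixed C57Bl6/129), and all carried the Immorto transgene, in which an interferon-gamma responsive H2Kb promoter drives a temperature-sensitive SV40 large T antigen, so this oncogene is common to every group. The endothelial cells were purified with antibodies, grown on gelatin at the temperature that keeps the antigen active, and moved to body temperature without interferon gamma for RNA. HEK293 is a human embryonic kidney line, and the sample labels describe co-culture RNA as roughly equal in its mouse and human shares. The labels give neither the number of lines per genotype nor whether replicates are separate cultures, so the tests measure only the spread between these arrays. The 2 HEK293 lines may differ in more than Norrin, and no group of the design separates the protein from such differences.

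Norrin is a secreted protein that binds the receptor frizzled-4 with high affinity and signals together with the co-receptor Lrp5 and the tetraspanin Tspan12. In the receiving cell this stabilises beta-catenin, which works with TCF/LEF factors at target genes. In the retina the pathway is known for its part in vessel growth and in the blood-retina barrier, and Fz4, the name used in the labels, is the gene Fzd4.

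The genotype labels were checked on Fzd4, which lay at 6.18, 6.25 and 6.28 in wild type control arrays and at 6.35, 6.38 and 6.45 in wild type Norrin arrays. It lay at 2.94, 2.83 and 2.69 in Fz4-/- control arrays and at 2.71, 2.81 and 2.75 in Fz4-/- Norrin arrays. The genotypes did not overlap, and the difference of responses of Fzd4 was -0.22 ± 0.14 (SE, n = 3 per group, limma adjusted p = 0.608). Ndp, the mouse gene for Norrin, was between 2.02 and 2.64 in all 12 arrays and gave no check on the Norrin label.

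The medians of the arrays were 3.44 to 3.52 in wild type and 3.21 to 3.31 in Fz4-/- co-cultures. The sources used here do not say whether the arrays of the genotypes were normalized together, so the parts of genotype and of any shared normalization in a level cannot be told apart. A response is taken within a genotype, so a constant shift shared by its 6 arrays cancels. A difference of scale between the arrays of the genotypes does not cancel, and other scalings are given with the dependence on processing. As a measure of the lowest usable values, the 95th percentile of 72 olfactory, vomeronasal and trace amine receptor genes was taken as a floor, at 4.09 in wild type and 3.84 in Fz4-/- co-cultures. In each genotype about 43.3% of genes were at or under it in both groups. In both wild type groups replicate 1 stood apart from replicates 2 and 3, which were nearer to one another.

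The responses of the genotypes differed in 385 of 18193 genes (2.12%), with an adjusted p below 0.05 in limma with Benjamini-Hochberg adjustment. The difference was higher in 159 genes (0.874%) and lower in 226 (1.24%). At an unadjusted p below 0.05 there were 2200 genes. The median difference over all genes was -0.00479, with a standard deviation of 0.277 and a median SE of 0.175. Of the 385 genes, 126 (0.693% of all) differed by more than 2-fold, 41 of them higher and 85 lower. The ranges of the 9 pairwise responses of each genotype did not overlap in 159 of 159 higher and 224 of 226 lower genes, beside 7.09% of all genes. These ranges use the same values as the test, so the count follows largely from the choice of genes and gives no separate support. The count was 241, 232 and 255 without Fz4-/- control replicate 1, 2 or 3, and 242 and 248 without Fz4-/- Norrin replicate 2 or 3. It was 90 with replicates 2 and 3 of each group averaged and 717 without replicate 1 of both wild type groups, alternatives chosen after seeing the data.

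The wild type response was the larger of the pair in 138 of the 159 higher genes and in 214 of the 226 lower genes. The responses had opposite signs in 89 of the higher and 114 of the lower genes. Among the genes past the threshold and above the floor in all 4 groups, the median size of the response was 0.829 in wild type and 0.168 in Fz4-/- cells. The choice of genes by their difference favours 1 large response and opposite signs, and it shapes these counts and medians. The counts were not taken over all genes, and many Fz4-/- responses were small, so an opposite sign need not be a reversal. Counts and medians are a description of the genes past the threshold, the medians of the 290 above the floor, and not a test.

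**Figure D1:**
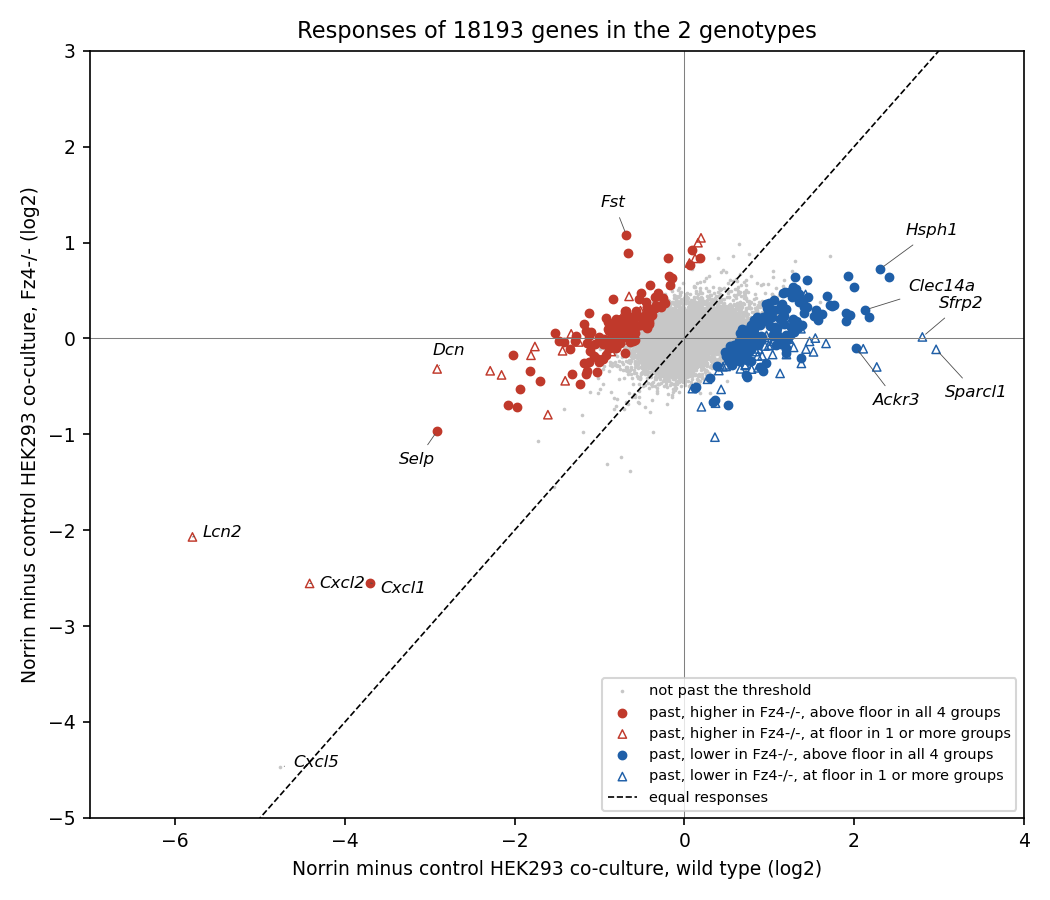
Response to Norrin-expressing HEK293 cells (log2, mean of 3 Norrin arrays minus mean of 3 control arrays) in wild type cells on the horizontal axis and in Fz4-/- cells on the vertical axis, 1 point per gene. The 159 red genes (higher) and 226 blue genes (lower) differ in response at an adjusted p below 0.05; triangles are at the floor in 1 or more groups, and Lcn2 lies farthest from the dashed line of equal responses.

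Floor effects were unequal between the directions. Of the 385 genes, 290 were above the floor in all 4 groups, 130 of them higher and 160 lower, which is 3.13% of the 9268 genes of this class. Another 51 were at the floor in both Fz4-/- groups, 12 higher and 39 lower, or 7.91% of 645 genes. For these a Fz4-/- fall could not be read, and by definition of the class neither Fz4-/- mean rose above the floor. Their median response size was 0.969 in wild type and 0.138 in Fz4-/- cells. In the 290 genes above the floor these medians were 0.829 and 0.168, so the contrast was not particular to genes at the floor. The choice of genes by their difference shapes both pairs of medians. At the floor in both wild type groups were 7 genes, 4 higher and 3 lower, or 1.10% of 636.

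A further 13 genes were at the floor in a single group, 5 in 1 group of each genotype, and 19 in all 4 groups (0.262% of 7241). Of the 20 largest lower differences 11 were at the floor in both Fz4-/- groups, against 3 of the 20 largest higher differences. With the stricter 99th percentile as the floor (5.25 and 4.90), 214 of the 385 genes were above it in all 4 groups and 63 were under it in both Fz4-/- groups. Under that floor the counts were 31 in a single group, 12 in both wild type groups and 60 in all 4 groups.

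**Figure D2:**
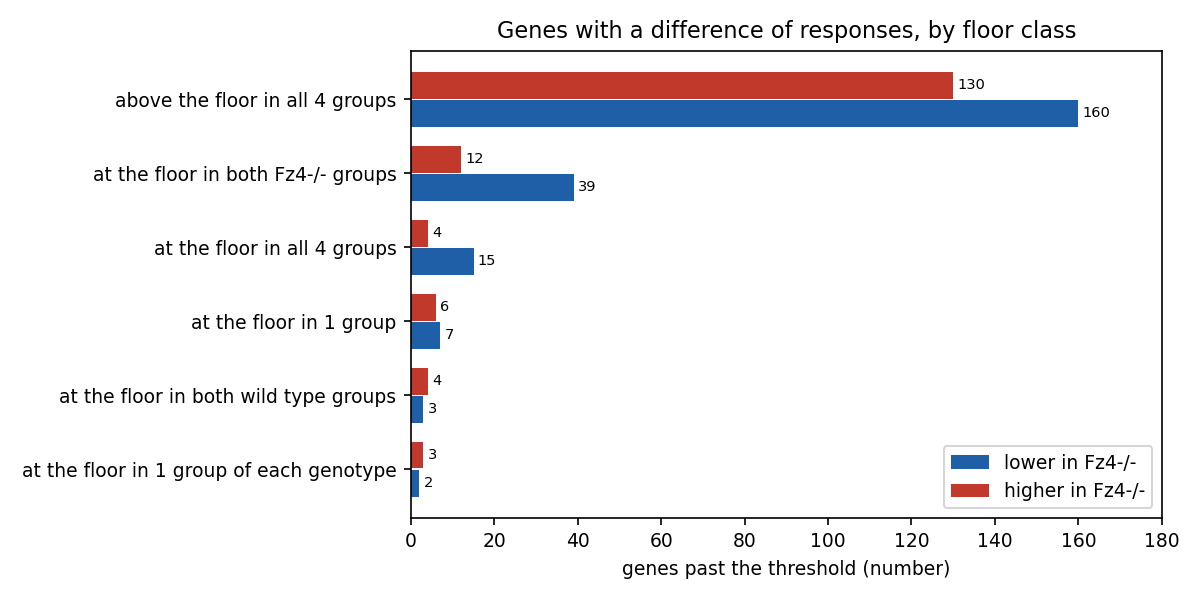
Number of genes past the threshold in each floor class, with lower differences in blue and higher differences in red. Above the floor in all 4 groups stood 130 higher and 160 lower genes, and at the floor in both Fz4-/- groups 12 higher and 39 lower genes.

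Inflammatory genes were among the largest higher differences. Lcn2, which encodes the siderophore-binding protein lipocalin-2, lay at 8.57, 9.18 and 9.14 in wild type control arrays and at 3.21, 3.15 and 3.15 in wild type Norrin arrays. In Fz4-/- cells it lay at 5.54, 4.92 and 5.22 with control cells and at 3.08, 3.36 and 3.03 with Norrin-expressing cells. The difference of responses was 3.73 ± 0.23 (SE, limma adjusted p = 1.1e-07), or 13.2-fold. Both Norrin groups were at the floor and overlapped, so the difference nearly equals the 3.74 by which the control groups of the genotypes differed. With all values raised to the floor it was 3.49.

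Cxcl2, a neutrophil chemokine, had the same arrangement. It lay at 7.29, 7.61 and 7.64 in wild type control arrays and at 5.34, 5.40 and 5.82 in Fz4-/- control arrays. With Norrin-expressing cells it was at 3.24, 3.00 and 3.06 in wild type and at 2.85, 3.01 and 3.04 in Fz4-/-, at the floor in both, and the difference of responses was 1.86 ± 0.19 (SE, adjusted p = 4.33e-05). The related Cxcl1 stayed above the floor, at 10.66, 10.81 and 10.84 in wild type control, 6.91, 7.14 and 7.15 in wild type Norrin, 9.38, 9.30 and 9.31 in Fz4-/- control and 6.73, 6.83 and 6.78 in Fz4-/- Norrin arrays. The control groups of Cxcl1 lay farther apart than its Norrin groups, and the difference was 1.15 ± 0.15 (SE, adjusted p = 0.000221). Cxcl5, another neutrophil chemokine, did not pass: it was between 7.69 and 8.0 in wild type control and at 8.17, 8.01 and 8.03 in Fz4-/- control arrays, and its Norrin groups were both at the floor. Its difference was 0.30 ± 0.17 (SE, adjusted p = 0.540), with a 95% confidence interval of -0.06 to 0.65.

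The promoters of Cxcl1 and Cxcl2 are shown because both genes, on mouse chromosome 5, passed as higher and because both windows hold the letters of an NF-kB site. The sequences are from RefSeq on GRCm38.p6, on the plus strand, 250 bases before to 50 bases after the gene start, with each match to GGG, any 2 bases and TTTCC, on either strand, in capitals.
Cxcl1 promoter, chr5:90890995-90891294: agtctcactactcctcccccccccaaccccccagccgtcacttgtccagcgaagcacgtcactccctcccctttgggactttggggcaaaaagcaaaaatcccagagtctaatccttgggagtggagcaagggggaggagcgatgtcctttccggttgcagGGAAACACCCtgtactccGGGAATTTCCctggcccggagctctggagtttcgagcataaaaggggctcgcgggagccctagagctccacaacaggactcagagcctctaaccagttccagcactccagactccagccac
Cxcl2 promoter, chr5:90903649-90903948: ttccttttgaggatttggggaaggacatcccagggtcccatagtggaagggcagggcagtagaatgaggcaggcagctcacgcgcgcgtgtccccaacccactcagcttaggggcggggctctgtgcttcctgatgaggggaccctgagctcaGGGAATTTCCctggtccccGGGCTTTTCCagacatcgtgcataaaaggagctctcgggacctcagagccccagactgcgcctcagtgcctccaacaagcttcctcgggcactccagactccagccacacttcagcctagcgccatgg

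Both promoters held 2 such matches. The letters were found in 3 of 129 promoters of higher genes (2.33%), 0 of 167 promoters of lower genes and 1.89% of 14452 promoters of all measured genes. The letters of a TCF/LEF site, CTTTGAT, were in 5 of 129 promoters of higher genes (3.88%) and 4 of 167 promoters of lower genes (2.4%). Their share over the 14452 promoters of all measured genes was 3.46%. A match is a description of the sequence and not a binding site.

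Of 17 measured chemokines, 5 passed as higher, 0 as lower and 12 did not pass, with a median difference of 0.21 beside -0.00479 over all genes. The share of all genes past the threshold, 0.874% as higher and 1.24% as lower, is the background for this count and for the count of each list below. Ccl2, which attracts monocytes, lay at 8.14, 8.62 and 8.56 in wild type control, 6.66, 6.60 and 6.25 in wild type Norrin, 10.04, 9.82 and 10.02 in Fz4-/- control and 9.36, 9.47 and 9.45 in Fz4-/- Norrin arrays. Every Fz4-/- array was above every wild type array, and the difference of responses was 1.41 ± 0.19 (SE, adjusted p = 0.00043). Ccl5, which attracts T cells and monocytes, was at 8.05, 8.11 and 8.25 in wild type control arrays, and the other 9 arrays lay between 6.45 and 6.93, with a difference of 1.44 ± 0.16 (adjusted p = 5.63e-05). Ccl8 differed by 1.63 ± 0.27 (adjusted p = 0.00228) and was at the floor in both Fz4-/- groups. Ccl7 had a difference of -0.01 and Cxcl10 of 0.42 (adjusted p = 0.40), neither past the threshold.

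Of 20 NF-kB and inflammatory adhesion genes, 3 passed as higher, 0 as lower and 17 did not pass, with a median of 0.38, beside 0.874% of all genes past the threshold as higher. The count was 5 with a replicate block within genotype. Selp encodes P-selectin, which tethers leukocytes to activated endothelium. It lay at 7.55, 7.99 and 8.02 in wild type control, 4.97, 5.14 and 4.71 in wild type Norrin, 6.83, 6.71 and 6.84 in Fz4-/- control and 5.43, 6.10 and 5.95 in Fz4-/- Norrin arrays. The 4 groups did not overlap, and the difference was 1.95 ± 0.23 (SE, adjusted p = 0.000126). A second Selp probe set, with Fz4-/- means at the floor (2.63 and 2.22), gave 1.30 (limma adjusted p = 0.0102 over all probe sets). Another, with both Norrin means at the floor (3.29 and 3.56), gave 0.76 (adjusted p = 0.308). Ptgs2, which encodes cyclooxygenase-2, was at 6.89 to 7.13 in wild type control and 6.37, 6.45 and 6.21 in wild type Norrin arrays, but at 6.69, 6.30 and 6.77 in Fz4-/- control and 7.34, 7.47 and 7.63 in Fz4-/- Norrin arrays. The responses of Ptgs2 pointed opposite ways without overlap of the arrays within either genotype, and their difference was 1.56 ± 0.18 (adjusted p = 0.00011). The third gene that passed was Lcn2. The adhesion molecule gene Icam1 had 0.68 (adjusted p = 0.0900), the NF-kB feedback inhibitor Tnfaip3 0.70 (0.103) and the adhesion molecule gene Vcam1 -0.01, none past the threshold.

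Other genes of this kind were among the 10 largest higher differences, or the 10 largest above the floor. Sod2, the mitochondrial superoxide dismutase, was at 8.26, 8.34 and 8.42 in wild type control arrays, while the other 9 arrays lay between 6.20 and 6.52, a difference of 1.84 ± 0.15 (SE, adjusted p = 3.2e-06). Cebpd, a transcription factor of the acute phase response, was at 8.79, 8.55 and 8.68 in wild type control, 6.50, 7.04 and 7.03 in wild type Norrin, 7.43, 7.46 and 7.51 in Fz4-/- control and 6.97, 7.16 and 7.25 in Fz4-/- Norrin arrays, a difference of 1.47 ± 0.19 (adjusted p = 0.000254). A second Cebpd probe set, above the floor in all 4 groups, gave 0.16 (adjusted p = 0.843 over all probe sets). Map3k8, a kinase of inflammatory signalling, differed by 1.68 ± 0.24 (adjusted p = 0.000767), with both Norrin groups at the floor. Wild type control arrays were the high ones in these 3 genes.

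Both Norrin groups were at the floor in 8 higher genes: Lcn2, Cxcl2, Map3k8, C1s1, Calhm6, Clba1, Crnde and Cwc22. In Lcn2, Cxcl2 and Cwc22 (0.81 beside 0.86) the difference of responses was close to the gap between the control co-cultures. In C1s1, Calhm6, Clba1 and Crnde it was 0.73 to 1.21 beside control gaps of 1.56 to 2.26, and in Map3k8 it was 1.68 beside 1.32. With values raised to the floor the difference of Map3k8 was 1.06. In the lower genes, 13 had both control groups at the floor.

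Of 24 measured Wnt/beta-catenin target genes, 1 passed as lower, 0 as higher and 23 did not pass, with a median of -0.07, beside 1.24% of all genes past the threshold as lower. At an unadjusted p below 0.05 there were 4, and 11 of the 24 were at the floor in all 4 groups. The count of lower genes was 2 with a replicate block, and Bmp4 lay next to the threshold (-0.90 ± 0.23, SE, adjusted p = 0.0503). The gene that passed was Fgf18, a fibroblast growth factor, at -0.91 ± 0.18 (SE, adjusted p = 0.00886). It was at the floor in all 4 groups, at 3.03 to 4.31 in wild type and 2.02 to 2.19 in Fz4-/- arrays, and with values raised to the floor the difference was -0.07.

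Axin2, a feedback inhibitor and common readout of the pathway, was at 3.92, 3.80 and 3.62 in wild type control and 3.81, 3.82 and 3.89 in wild type Norrin arrays. In Fz4-/- arrays it was between 2.74 and 2.95. All these values were under the floor, the groups of each genotype overlapped, and the difference of -0.16 ± 0.15 had a 95% confidence interval of -0.47 to 0.15 (adjusted p = 0.769). Lef1, a TCF/LEF factor and a target itself, was between 4.04 and 4.43 in all 12 arrays, with a difference of -0.22 ± 0.14 (interval -0.52 to 0.08, adjusted p = 0.604). The mean of its probe sets gave 0.02. Sp5, a target with a higher level, lay at 5.95, 5.75 and 5.75 in wild type control, 6.36, 6.84 and 6.64 in wild type Norrin, 5.86, 5.49 and 5.75 in Fz4-/- control and 5.72, 5.70 and 5.99 in Fz4-/- Norrin arrays. The wild type Norrin arrays of Sp5 were above the other 9, but the difference of -0.69 ± 0.19 did not pass (adjusted p = 0.0742).

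The receptor side of the pathway differed in part. Of 20 Wnt receptors and co-receptors, 3 passed as lower, 0 as higher and 17 did not pass, with a median of -0.21. Fzd6, another frizzled receptor, was at 8.33, 8.57 and 8.58 in wild type control, 10.02, 10.22 and 10.28 in wild type Norrin, 7.17, 7.30 and 7.36 in Fz4-/- control and 7.63, 7.74 and 7.78 in Fz4-/- Norrin arrays. Its arrays were higher with Norrin-expressing cells in both genotypes without overlap, and the difference of responses was -1.24 ± 0.16 (SE, adjusted p = 0.000221). Reck, a membrane protein that acts with Adgra2 as a co-receptor for Wnt7, differed by -1.49 ± 0.22 (adjusted p = 0.000867), from 5.63, 6.24 and 6.25 to 7.17, 7.19 and 7.15 in wild type, while the Fz4-/- arrays were at the floor, between 2.30 and 3.12. Lgr4, a receptor for R-spondins, differed by -0.86 ± 0.18 (adjusted p = 0.0175), also with Fz4-/- at the floor.

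The call of Lgr4 was lost without wild type Norrin replicate 3, Fz4-/- control replicate 2 or 3, or Fz4-/- Norrin replicate 2, with values of -1.01 to -0.76 over the 12 arrays left out in turn. The Norrin co-receptor gene Lrp5 was near the floor with a wide interval (-0.02, from -0.79 to 0.75). Tspan12 was at the floor in all 4 groups and gave no measure of the receptor complex.

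Of 9 secreted Wnt antagonists 2 passed as lower, with a median of -0.18. Sfrp2, a secreted frizzled-related protein, was at 3.79, 4.71 and 4.40 in wild type control arrays and at 6.53, 7.43 and 7.36 in wild type Norrin arrays, and the Fz4-/- arrays lay at the floor, between 1.95 and 2.60. Its difference was -2.79 ± 0.32 (SE, adjusted p = 0.000105) and -2.70 with values raised to the floor. Sfrp1, above the floor in both genotypes, was at 9.01, 8.91 and 8.94 in wild type control, 9.32, 9.91 and 9.74 in wild type Norrin, 6.38, 6.24 and 6.26 in Fz4-/- control and 6.24, 6.14 and 6.15 in Fz4-/- Norrin arrays, a difference of -0.82 ± 0.18 (adjusted p = 0.0192). That call was lost without wild type Norrin replicate 2 or 3, Fz4-/- control replicate 1, or Fz4-/- Norrin replicate 2 or 3 (-0.98 to -0.69 over all 12). None of the 17 Norrin and Wnt ligand genes passed in limma (median -0.07, with 1 at an unadjusted p below 0.05).

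**Figure D3:**
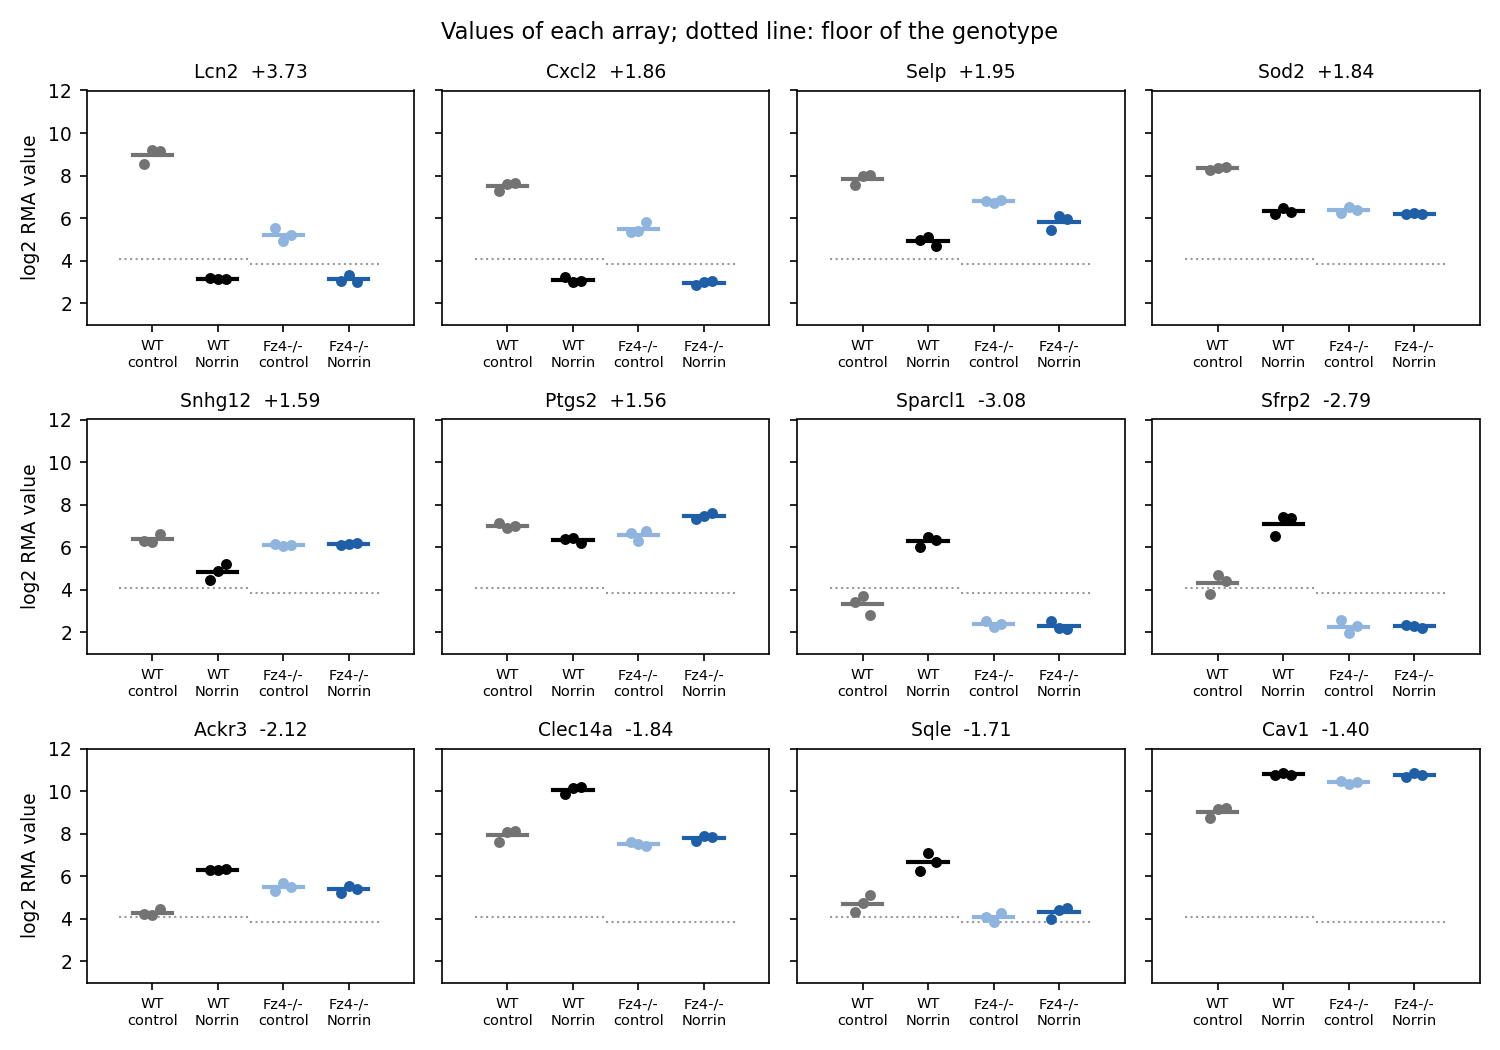
Log2 values of single arrays (points) and group means (bars) for 12 genes, by group: wild type control, wild type Norrin, Fz4-/- control, Fz4-/- Norrin. The number beside each gene is the Fz4-/- response minus the wild type response; the dotted lines are the floors of the wild type (4.09) and Fz4-/- (3.84) arrays, and Sparcl1 and Sfrp2 lie under the floor in every Fz4-/- array.

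Pan-endothelial markers were lower in part. Of 26 measured, 8 passed as lower, 1 as higher and 17 did not pass, and the median of -0.56 was the lowest among the lists in which 2 or more members passed. Clec14a, an endothelial lectin-like surface protein, was at 7.60, 8.09 and 8.12 in wild type control, 9.86, 10.15 and 10.21 in wild type Norrin, 7.61, 7.51 and 7.40 in Fz4-/- control and 7.66, 7.89 and 7.86 in Fz4-/- Norrin arrays. Its wild type Norrin arrays stood above the other 9, and the difference was -1.84 ± 0.20 (SE, adjusted p = 5.63e-05). Adgrl4, an endothelial adhesion receptor, was at 6.68, 6.44 and 6.60 in wild type control and 8.22, 8.68 and 8.52 in wild type Norrin arrays, and the Fz4-/- arrays lay between 7.40 and 7.91, a difference of -1.64 ± 0.18 (adjusted p = 5.63e-05). Here the wild type control arrays were the low ones and the Norrin arrays the high ones, with all Fz4-/- arrays between them.

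Icam2, an adhesion molecule at endothelial junctions, was at 6.28, 6.59 and 6.49 in wild type control arrays, and the other 9 arrays lay between 7.47 and 7.92, a difference of -1.22 ± 0.18 (SE, adjusted p = 0.000849). Ramp2 (-1.11), which makes a receptor respond to adrenomedullin, the angiopoietin receptor gene Tek (-1.07, and -0.59 with values raised to the floor, which lay above its wild type control mean), the TGF-beta co-receptor gene Eng (-0.83), Egfl7 (-0.74) and the junction protein gene Esam (-0.66) also passed as lower. Mmrn2, a matrix protein of endothelium that binds Clec14a, was the exception at 0.65 ± 0.15 (adjusted p = 0.0317). Cdh5, which encodes VE-cadherin, was at 5.77, 5.86 and 5.86 in wild type control and 6.41, 7.14 and 7.13 in wild type Norrin arrays, with Fz4-/- arrays between 6.50 and 7.16. Its difference of -0.64 ± 0.22 did not pass (adjusted p = 0.185), and neither did those of Pecam1 (-0.52) and Kdr (-0.40). Cdh5 passed without wild type Norrin replicate 1 (-0.88, adjusted p = 0.0023), without replicate 1 of every group (-0.75, adjusted p = 0.0223) and without replicate 1 of both wild type groups (-0.85, adjusted p = 0.00319). The summed picture of the list is a mean level of 6.87 to 7.11 in wild type control, 7.51 to 7.90 in wild type Norrin, 7.69 to 7.83 in Fz4-/- control and 7.87 to 8.02 in Fz4-/- Norrin arrays. Wild type control arrays had the lowest of these means. In bulk RNA of mixed cultures, the share of endothelial cells and the level of these genes per cell cannot be told apart, and neither was tested.

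The number of pan-endothelial markers lower was 5 to 12 when an array was left out, 13 without replicate 1 of both wild type groups and 4 with replicates 2 and 3 averaged.

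Transcription factors of endothelial identity showed smaller differences. Of 16 ETS and other endothelial factors, 3 passed as lower and 13 did not pass, with a median of -0.39. Elk3, an ETS factor, was at 7.37, 7.38 and 7.49 in wild type control, 8.29, 8.46 and 8.44 in wild type Norrin, 8.55, 8.36 and 8.59 in Fz4-/- control and 8.73, 8.78 and 8.68 in Fz4-/- Norrin arrays, with a difference of -0.76 ± 0.15 (SE, adjusted p = 0.00807). The wild type control arrays were the low ones. Fli1, another ETS factor, differed by -0.84 ± 0.18 (adjusted p = 0.0197) and Lyl1, a helix-loop-helix factor, by -0.70 ± 0.16 (adjusted p = 0.0308). Leaving out an array ended the call of Fli1 in 4 of 12 cases (Fz4-/- control 1 or 3, Fz4-/- Norrin 1 or 2; -0.98 to -0.68) and that of Lyl1 in 6 (wild type control 2, wild type Norrin 3, Fz4-/- control 1 or 2, Fz4-/- Norrin 1 or 2; -0.77 to -0.60).

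None of the 3 SoxF factors, which take part in endothelial differentiation, passed in limma, with 1 at an unadjusted p below 0.05. Sox18 was at 7.78, 8.60 and 8.60 in wild type control and 8.98, 9.42 and 9.33 in wild type Norrin arrays, with Fz4-/- arrays between 8.78 and 9.08. Its replicate 1 was the low array in both wild type groups, and the difference was -0.79 ± 0.25 (SE, adjusted p = 0.139). Sox18 passed with a replicate block, shared by all groups (adjusted p = 0.0405) or within genotype (0.0157), and without replicate 1 of both wild type groups (-0.65, adjusted p = 0.022). Sox7 was at -0.42 ± 0.22 (adjusted p = 0.493). Sox17 was at -0.43 ± 0.24 (adjusted p = 0.522) and at the floor in both Fz4-/- groups. A second Sox17 probe set, with all 4 group means under the floor, gave -1.37 (adjusted p = 0.000548 over all probe sets), and the mean of both passed at -0.90 (adjusted p = 0.00297).

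Of 23 barrier and transporter genes, 2 passed as lower and 21 did not pass, with a median of 0.03. Cav1, the coat protein of caveolae, was at 8.76, 9.17 and 9.19 in wild type control arrays and between 10.35 and 10.87 in the other 9, a difference of -1.40 ± 0.17 (SE, adjusted p = 0.000141). Abcg2, an efflux transporter of the blood-brain and blood-retina barriers, was at 5.91, 6.12 and 6.19 in wild type control arrays and between 6.77 and 7.23 in the others, a difference of -1.02 ± 0.17 (adjusted p = 0.00252). In both genes the wild type control group alone was low.

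Plvap, a protein of fenestrae and of leaky endothelium, was between 9.995 and 10.34 in wild type control, 9.28, 9.90 and 9.87 in wild type Norrin, 10.98, 10.77 and 10.93 in Fz4-/- control and 10.90, 11.09 and 11.02 in Fz4-/- Norrin arrays. The wild type Norrin arrays lay below the wild type control arrays and the Fz4-/- groups overlapped, but the difference of 0.63 ± 0.21 did not pass (SE, adjusted p = 0.168). It passed with a replicate block within genotype (adjusted p = 0.0474) and after centring with a common interquartile range (0.68, adjusted p = 0.0211). The tight junction gene Cldn5 was at -0.17 ± 0.17 (interval -0.52 to 0.19, adjusted p = 0.796), between 4.06 and 4.53 in wild type arrays and thus close to the floor. Slc38a5, an amino acid transporter known as a Norrin-dependent gene of retinal vessels, was at the floor in all 4 groups, at -0.09 ± 0.18. Its difference was 0.0158 without Fz4-/- control replicate 1.

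Of 15 arterial markers 2 passed as lower, with a median of -0.15, and of 11 venous and lymphatic markers 3 passed as higher, with a median of 0.12. Nrp1, a receptor for semaphorins and VEGF, was at 6.69, 5.84 and 6.06 in wild type control, 8.65, 8.37 and 8.10 in wild type Norrin, 4.48, 3.88 and 4.38 in Fz4-/- control and 4.19, 4.77 and 4.45 in Fz4-/- Norrin arrays, a difference of -1.95 ± 0.29 (SE, adjusted p = 0.000885). The wild type groups did not overlap, and the Fz4-/- groups did. Of its other probe sets, 2 gave -2.15 and -2.08, and another -1.13 (adjusted p = 0.0812 over all probe sets). The probe set with -2.08 was under the Fz4-/- floor of 3.84 in both Fz4-/- groups (means 3.28 and 3.29). A fall could not be read there. That with -2.15 was at the floor in Fz4-/- control (3.82) but not in Fz4-/- Norrin co-cultures (4.15). The chosen probe set was above the floor but near it, with Fz4-/- means of 4.25 and 4.47.

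Bmx, a kinase of arterial endothelium, passed at -1.24 ± 0.18 (SE, adjusted p = 0.000767) but was at the floor in all 4 groups, and with values raised to the floor it was -0.07. Nrp2, the venous and lymphatic counterpart of Nrp1, was at 6.52, 6.60 and 6.44 in wild type control and 5.88, 5.86 and 5.92 in wild type Norrin arrays. In Fz4-/- cells it was between 8.38 and 8.63 in all 6 arrays, and the difference was 0.72 ± 0.15 (adjusted p = 0.0121). The other 3 Nrp2 probe sets gave 0.13, -0.15 and 0.23 (adjusted p = 0.746 or more over all probe sets), so the call rests on the probe set with the highest mean. Lyve1, a lymphatic hyaluronan receptor, passed at 0.70 ± 0.15 (adjusted p = 0.0154), with wild type arrays at the floor and Fz4-/- arrays between 8.50 and 8.95. Its difference was 0.33 with values raised to the floor, and a second Lyve1 probe set gave 0.25 (adjusted p = 0.699 over all probe sets). The call was lost without Fz4-/- control replicate 3 (adjusted p = 0.0546). The third venous gene was Selp.

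Of 14 genes of the VEGF and angiopoietin system, Nrp2 passed as higher, Nrp1 and Tek as lower, and 11 did not pass (median -0.13). A replicate block of either kind gave 4 lower genes. None of 15 tip cell genes (median -0.06) and none of 15 Notch receptors and targets (median -0.15) passed in limma, with 4 and 3 at an unadjusted p below 0.05.

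Extracellular matrix genes were lower in part. Of 22 basement membrane and matrix genes, 5 passed as lower, 0 as higher and 17 did not pass, with a median of -0.28, beside 1.24% of all genes past the threshold as lower. Of the 22, 16 were above the floor in all 4 groups, 3 at the floor in both Fz4-/- groups and 2 in all 4. Lox, which cross-links collagen, was at 4.99, 5.44 and 5.55 in wild type control and 6.64, 7.05 and 6.85 in wild type Norrin arrays, and at the floor between 2.35 and 2.71 in Fz4-/- arrays, a difference of -1.66 ± 0.20 (SE, adjusted p = 0.00015). Fn1, the fibronectin gene, was at 10.28, 10.37 and 10.44 in wild type control arrays and between 11.19 and 11.55 in the other 9, a difference of -0.74 ± 0.14 (adjusted p = 0.0071). For Lox the wild type Norrin arrays were the high ones, and for Fn1 the wild type control arrays were the low ones.

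The fibrillar collagen genes Col5a2 (-0.89), Col1a2 (-0.86) and Col3a1 (-0.94, at the floor in all 4 groups) passed as well, whereas Col1a1 (-0.10) and the basement membrane collagens Col4a1 (0.15) and Col4a2 (-0.04) did not. The call of Col5a2 was lost without wild type Norrin replicate 2 or 3, Fz4-/- control replicate 2 or Fz4-/- Norrin replicate 1 (-1.0 to -0.71 over all 12). The matrix list held 3 to 8 genes past the threshold in the leave-one-out fits, and 9 without replicate 1 of both wild type groups. Of 17 matrix proteases and inhibitors, Plat passed, the gene of tissue plasminogen activator, at -1.23 ± 0.16 (SE, adjusted p = 0.000254).

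Sparcl1 gave the largest lower difference. This gene, which encodes a matricellular protein of vessels, was at 3.42, 3.72 and 2.83 in wild type control and 6.01, 6.50 and 6.35 in wild type Norrin arrays, and between 2.14 and 2.54 in Fz4-/- arrays. The difference was -3.08 ± 0.26 (SE, adjusted p = 3.46e-06), or 8.46-fold, and -2.20 with values raised to the floor. Cthrc1, a secreted protein of remodelling tissue, was at 3.84, 4.57 and 4.43, then 6.33, 6.62 and 6.69 in wild type, and under 3.12 in every Fz4-/- array, a difference of -2.56 ± 0.23 (adjusted p = 5.56e-06). Ogn, a small leucine-rich proteoglycan, differed by -2.22 ± 0.24 (adjusted p = 5.63e-05) and Hs3st1, a heparan sulfate sulfotransferase, by -1.72 ± 0.28 (adjusted p = 0.00169), both at the floor in Fz4-/- cells. For these 4 genes and Sfrp2 the Fz4-/- arrays could show no fall and gave no rise above the floor.

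Dcn, the proteoglycan decorin, had the opposite sign. It was at 7.39, 7.74 and 7.69 in wild type control and 3.98, 5.13 and 4.98 in wild type Norrin arrays, and between 2.60 and 3.30 in Fz4-/- arrays, a difference of 2.60 ± 0.31 (SE, adjusted p = 0.00011). The Fz4-/- arrays were at the floor in both groups, so a fall could not be read there.

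Some of these genes were not detected in the endothelial lines grown alone. After the values were seen, the genes at the floor in gelatin cultures of both genotypes but above it in a co-culture group were counted. Of 395 such genes 16 passed (4.05%), 13 as lower and 3 as higher, beside 2.12% of all genes. Of the 16, 13 were at the floor in both Fz4-/- groups, a class in which 7.91% of genes passed. The share of that class among the 395 was not counted. A gene could enter the set through the group where it was high, so these counts are a description and not a test. Aldh1a1, a retinaldehyde dehydrogenase, was at 3.04 and 2.76 on gelatin in wild type and Fz4-/- cells (means of 3 arrays). In co-culture it was at 8.19, 8.35 and 8.44 in wild type control, 9.37, 9.65 and 9.56 in wild type Norrin and between 1.83 and 2.30 in Fz4-/- arrays, a difference of -1.37 ± 0.17 (SE, adjusted p = 0.000141). Sfrp2, Ogn, Cthrc1, Lox and Col1a2 are also among the 16, and the last was at 4.03 and 4.08 on gelatin but between 7.86 and 9.0 in wild type co-cultures. The medians of the single cultures were 5.02 to 5.11, well above those of the co-cultures, so these levels are compared across unlike arrays.

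Genes above the floor in all 4 groups gave further lower differences. Ackr3, a scavenger receptor for Cxcl12, was at 4.23, 4.20 and 4.45 in wild type control and 6.30, 6.28 and 6.36 in wild type Norrin arrays. In Fz4-/- cells it was at 5.30, 5.67 and 5.49 with control and 5.24, 5.54 and 5.40 with Norrin-expressing cells, so that the Fz4-/- groups overlapped and lay between the wild type groups. The difference was -2.12 ± 0.17 (SE, adjusted p = 2.78e-06), although wild type control values were close to the floor.

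Flrt2, a guidance protein that binds Unc5 receptors, was at 4.85, 5.57 and 5.93 in wild type control and 7.19, 7.38 and 7.51 in wild type Norrin arrays, with Fz4-/- arrays between 5.92 and 6.35, a difference of -1.72 ± 0.27 (SE, adjusted p = 0.00121). Tnfsf10, the death ligand TRAIL, differed by -1.58 ± 0.24 (adjusted p = 0.000867), from 4.91, 5.59 and 5.62 to 6.54, 6.74 and 6.95 in wild type and between 3.84 and 4.36 in Fz4-/- arrays. The Fz4-/- values of Tnfsf10 were close to the floor of 3.84. Tmem158 differed by -1.78 ± 0.30 (adjusted p = 0.00271). Its wild type control arrays were spread from 4.73 to 5.98, the widest group of the 4.

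Hsph1, a heat shock protein, was at 6.38, 6.40 and 6.39 in wild type control, 8.39, 8.88 and 8.83 in wild type Norrin, 8.41, 8.26 and 8.50 in Fz4-/- control and 9.01, 9.20 and 9.13 in Fz4-/- Norrin arrays. It was higher with Norrin-expressing cells in both genotypes without overlap, and the wild type response was the larger, with a difference of -1.58 ± 0.18 (SE, adjusted p = 8.37e-05). Ccn2, a matricellular YAP/TAZ target, behaved likewise: it was at 8.65, 8.52 and 8.61, then 10.62, 10.58 and 10.58 in wild type, and at 9.95, 9.74 and 9.97, then 10.33, 10.49 and 10.45 in Fz4-/- arrays, a difference of -1.46 ± 0.14 (adjusted p = 2.76e-05). The wild type control arrays of both genes were well below every other array.

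Cholesterol synthesis genes were lower in part. Of 20 measured, 9 passed as lower, 0 as higher and 11 did not pass, with a median of -0.49, beside 1.24% of all genes past the threshold as lower. Sqle, which makes squalene epoxide, was at 4.31, 4.75 and 5.10 in wild type control, 6.26, 7.10 and 6.67 in wild type Norrin, 4.07, 3.85 and 4.28 in Fz4-/- control and 4.01, 4.41 and 4.52 in Fz4-/- Norrin arrays, a difference of -1.71 ± 0.29 (SE, adjusted p = 0.00283). The wild type Norrin arrays were above all others, and the Fz4-/- groups overlapped close to their floor.

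Hmgcs1, an early enzyme of the mevalonate pathway, was at 5.59, 5.31 and 5.54 in wild type control and 6.49, 6.80 and 6.75 in wild type Norrin arrays, with Fz4-/- arrays between 4.70 and 5.10, a difference of -1.17 ± 0.18 (SE, adjusted p = 0.000885). Msmo1, a sterol demethylating oxidase, differed by -1.36 ± 0.18 (adjusted p = 0.000254) and Stard4, a cholesterol carrier, by -1.25 ± 0.19 (adjusted p = 0.00119). The enzyme genes Cyp51 (-1.20, at the floor in Fz4-/- cells), Idi1 (-1.14), Nsdhl (-1.08), Fdps (-0.99) and Hsd17b7 (-0.84) completed the 9. The list's mean level was 5.27 to 5.43 in wild type control, 5.90 to 6.17 in wild type Norrin, 4.71 to 4.74 in Fz4-/- control and 4.83 to 4.87 in Fz4-/- Norrin arrays. Not past were Insig1 (0.26), Srebf2 (-0.19) and Lss (-0.04). The count was 8 or 9 with any array left out, 8 among genes above the floor in all 4 groups and 5 with replicates 2 and 3 averaged.

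**Figure D4:**
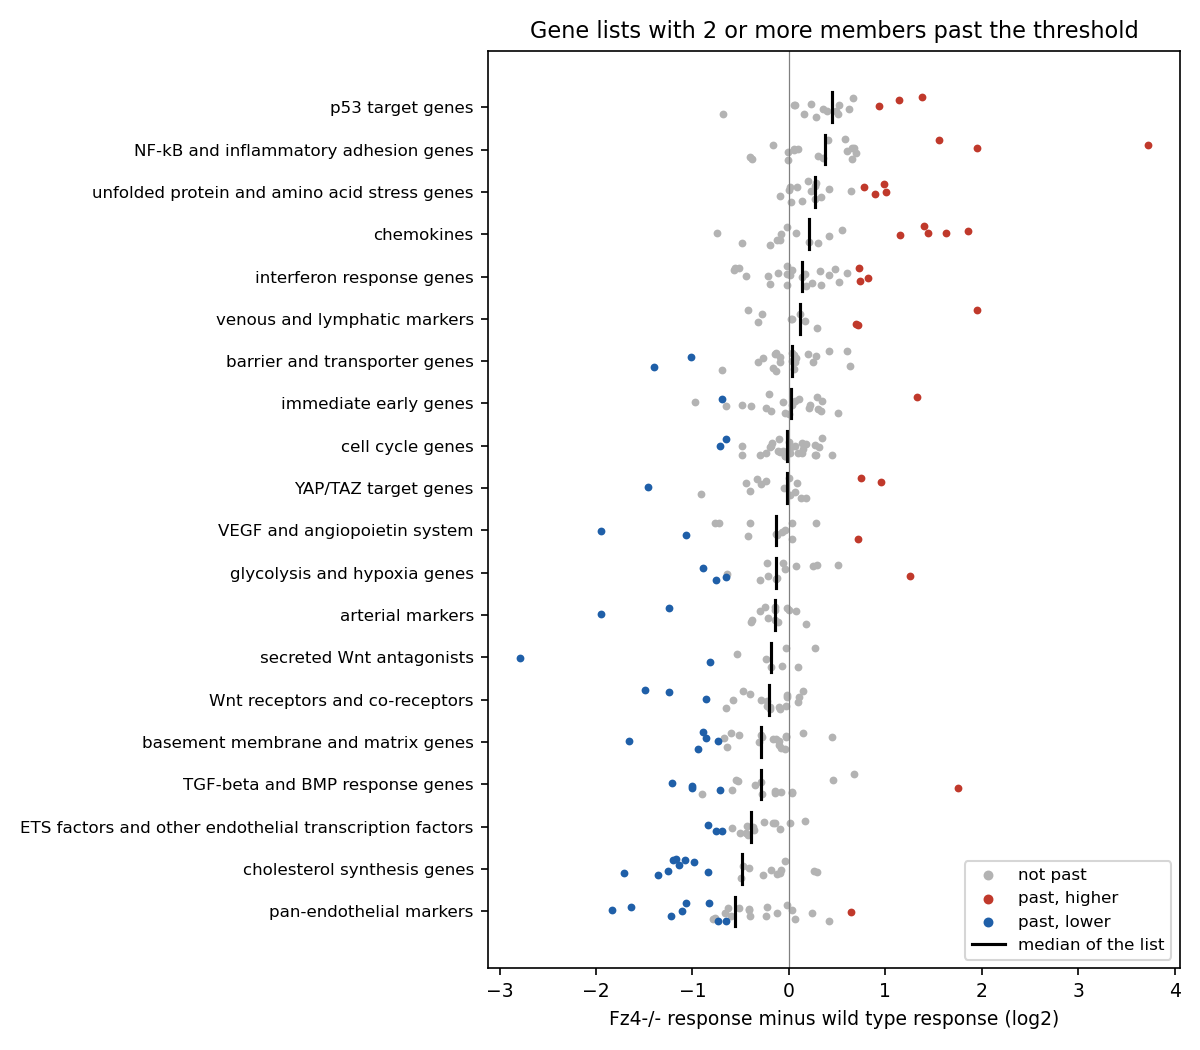
Fz4-/- response minus wild type response (log2) for the members of the gene lists in which 2 or more members passed the threshold, 1 point per gene, with vertical position inside a list only to spread points. Red and blue points passed as higher and lower, and black bars are list medians, from -0.56 for pan-endothelial markers to 0.44 for p53 targets.

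Stress and growth control lists held higher members. Of 16 p53 target genes, 3 passed as higher, 0 as lower and 13 did not pass, with a median of 0.44. Mdm2, the ubiquitin ligase of p53, was at 7.99, 8.20 and 8.33 in wild type control, 6.91, 7.49 and 7.33 in wild type Norrin, 7.97, 7.81 and 7.79 in Fz4-/- control and 8.07, 8.04 and 8.09 in Fz4-/- Norrin arrays, so that wild type Norrin arrays were the low ones. The difference was 1.14 ± 0.19 (SE, adjusted p = 0.00229). A second Mdm2 probe set gave 1.40 and another, at the floor, 0.01.

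Pmaip1, the cell death gene Noxa, passed at 1.38 ± 0.17 (SE, adjusted p = 0.0002), from 7.13, 6.84 and 7.19 to 5.85, 5.69 and 5.62 in wild type, with Fz4-/- arrays at the floor. Eda2r passed at 0.94 ± 0.21 (adjusted p = 0.0227), a call that was lost in 6 of 12 cases of an array left out (wild type control 3, Fz4-/- control 2 or 3, any Fz4-/- Norrin array; 0.78 to 1.08). The cell cycle inhibitor gene Cdkn1a (0.66, adjusted p = 0.13) did not pass. All groups share the transgene for large T antigen, which binds p53, and RNA was taken at body temperature without interferon gamma. The part of the antigen in these values was not tested.

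Of 18 genes of the unfolded protein and amino acid stress responses, 4 passed as higher and 14 did not pass, with a median of 0.27, and the count was 4 with any array left out. Asns, asparagine synthetase, was at 8.32, 8.40 and 8.35 in wild type control, 7.39, 7.65 and 7.60 in wild type Norrin, 8.09, 8.19 and 8.31 in Fz4-/- control and 8.43, 8.36 and 8.39 in Fz4-/- Norrin arrays, a difference of 1.01 ± 0.15 (SE, adjusted p = 0.000773). Ddit3, the stress factor CHOP, was at 6.76, 6.33 and 6.42 in wild type control and 5.75, 5.62 and 5.69 in wild type Norrin arrays, with Fz4-/- arrays between 6.33 and 6.48, a difference of 0.89 ± 0.16 (adjusted p = 0.00474). In both genes only the wild type Norrin arrays were low.

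Ddit4, an inhibitor of mTOR signalling, passed at 0.99 ± 0.17 (SE, adjusted p = 0.00241). Hspa5, the endoplasmic reticulum chaperone BiP, passed at 0.77 ± 0.15 (adjusted p = 0.00838) with another arrangement: its Fz4-/- Norrin arrays, at 10.97, 11.02 and 11.01, were above all others. The regulators Atf4 (0.33) and Xbp1 (0.27) did not pass.

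Of 25 interferon response genes, 3 passed as higher and 22 did not pass, with a median of 0.14. Rsad2, the antiviral protein viperin, was between 8.04 and 8.44 in wild type arrays, at 9.0 to 9.10 in Fz4-/- control and at 9.56, 9.78 and 9.72 in Fz4-/- Norrin arrays, a difference of 0.82 ± 0.15 (SE, adjusted p = 0.00568). The Fz4-/- groups did not overlap, and the wild type groups did.

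Ifit2 (0.74, adjusted p = 0.028) and Oas3 (0.72, adjusted p = 0.0293), both antiviral proteins, lost their calls in 8 and 6 of 12 leave-one-out fits of limma. For Ifit2 these were wild type control 2 or 3 and any Fz4-/- array (0.63 to 0.84), and for Oas3 wild type control 1, any Fz4-/- control array and Fz4-/- Norrin 1 or 3 (0.63 to 0.79). Oas3 had means of 6.82 in wild type control and 5.95 in wild type Norrin arrays. Its Fz4-/- means of 2.68 and 2.55 were at the floor, so a fall could not be read there. None of 12 antigen processing genes passed in limma (median -0.14, with 1 at an unadjusted p below 0.05).

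TGF-beta and BMP response genes held members of both signs. Of 19 measured, 1 passed as higher, 4 as lower and 14 did not pass, with a median of -0.29. Fst, follistatin, which binds and blocks activins, was at 7.21, 7.34 and 7.45 in wild type control, 6.30, 6.78 and 6.87 in wild type Norrin, 5.44, 5.08 and 5.49 in Fz4-/- control and 6.25, 6.35 and 6.64 in Fz4-/- Norrin arrays. The responses went opposite ways without overlap within a genotype, and the difference was 1.76 ± 0.22 (SE, adjusted p = 0.000162).

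The BMP targets Id1, Id2 and Id3, inhibitors of helix-loop-helix factors, went the other way. Id1 was at 7.93, 8.02 and 8.22 in wild type control and 8.28, 8.44 and 8.47 in wild type Norrin arrays, but at 8.13, 8.02 and 8.06 in Fz4-/- control and 7.28, 7.51 and 7.42 in Fz4-/- Norrin arrays, a difference of -1.01 ± 0.15 (SE, adjusted p = 0.00104). Id2 (-1.0 ± 0.17, adjusted p = 0.00221), Id3 (-0.72 ± 0.15, adjusted p = 0.0157) and the inhibitory Smad gene Smad6 (-1.21 ± 0.24, adjusted p = 0.0108) passed as lower too. In these 4 genes the Fz4-/- Norrin arrays were below the Fz4-/- control arrays.

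Glycolysis and hypoxia genes were divided. Of 16, the hexokinase gene Hk2 passed as higher (1.25 ± 0.24, SE, adjusted p = 0.00792), and Ldha (-0.75 ± 0.15, adjusted p = 0.01), Pfkp (-0.65) and Pfkfb3 (-0.89 ± 0.22, adjusted p = 0.0367) as lower, with a median of -0.13. Hk2 was at 4.97, 5.13 and 5.26 in wild type control, 4.41, 3.80 and 4.64 in wild type Norrin, 4.70, 4.68 and 4.28 in Fz4-/- control and 4.98, 4.88 and 5.04 in Fz4-/- Norrin arrays. Pfkfb3 was at the floor in Fz4-/- cells and kept its call only without wild type control replicate 3 or wild type Norrin replicate 1 (-1.09 to -0.74 over all 12).

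Of 22 immediate early genes, Atf3, a stress-induced factor, passed as higher (1.33 ± 0.18, SE, adjusted p = 0.00043) and Dusp1, a phosphatase of MAP kinases, as lower (-0.69 ± 0.17, adjusted p = 0.0368), with a median of 0.02. Atf3 was at 6.98, 7.23 and 7.24 in wild type control and 5.79, 5.90 and 6.22 in wild type Norrin arrays, with Fz4-/- arrays between 5.01 and 5.41. The call of Dusp1 was lost in 9 of 12 cases, all but wild type control 2 or 3 and wild type Norrin 1 (-0.80 to -0.59).

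Of 16 YAP/TAZ targets, Gadd45b (0.96 ± 0.17, SE, adjusted p = 0.00474) and Arhgef17 (0.75 ± 0.16, adjusted p = 0.0181) passed as higher and Ccn2 as lower, with a median of -0.02. Arhgef17 lost its call in 5 of 12 cases (wild type Norrin 3, Fz4-/- control 2 or 3, Fz4-/- Norrin 2 or 3; 0.68 to 0.85). Of 30 cell cycle genes, Tk1 (-0.71) and Pcna (-0.65) passed as lower and 28 did not pass, with a median of -0.02. Tk1 kept its call only without wild type Norrin replicate 1 (-0.84 to -0.57 over all 12) and Pcna only without wild type control replicate 2 or 3 (-0.71 to -0.53). Of 18 actin and SRF targets, Acta2 passed as lower (-0.91 ± 0.17, adjusted p = 0.00739), with a median of -0.27.

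Some differences rested on the choice of probe set. With all probe sets of a gene averaged, the calls of Lgr4 (-0.40), Nrp2 (0.23), Lyve1 (0.47), Arhgef17 (0.18), Acta2 (-0.19), Pfkfb3 (-0.50) and Atxn7l1 (0.39) were lost. The differences of Dcn (1.21), Tmem158 (-1.14), Cebpd (0.81), Lox (-0.99), Col3a1 (-0.59), Plat (-0.53) and Msmo1 (-0.74) were over 1.5 times smaller and stayed past the threshold, and that of Col5a2 (-1.49) was larger.

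Genes at the floor in both wild type groups gave the reverse floor effect. The 7 that passed were Kit, Lyve1, St8sia4 and Synm as higher and Thy1, Tmem204 and Tslp as lower. St8sia4, a polysialyltransferase, was between 2.34 and 2.56 in wild type arrays, at 5.46, 5.57 and 5.45 in Fz4-/- control and at 6.43, 6.60 and 6.45 in Fz4-/- Norrin arrays, a difference of 0.84 ± 0.14 (SE, adjusted p = 0.00198). Kit, the stem cell factor receptor, was at 5.39, 4.94 and 5.11 in Fz4-/- control and 5.99, 6.24 and 6.35 in Fz4-/- Norrin arrays, with a difference of 0.85 ± 0.21 (adjusted p = 0.0352). Tslp, a cytokine of epithelia, was at 4.64, 4.43 and 4.91, then 3.70, 3.59 and 3.59 in Fz4-/- arrays, a difference of -1.39 ± 0.17 (adjusted p = 0.000189). In these 3 genes the Fz4-/- control and Norrin arrays did not overlap, whereas a wild type response could not be read above the floor. The Fz4-/- Norrin arrays of Tslp were themselves under the Fz4-/- floor of 3.84, so the size of its fall could not be read in full.

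Markers of other cells were counted beside these results. Of 10 fibroblast markers, Dcn passed as higher, Col3a1, Thy1 and Col1a2 as lower, and 6 did not pass, with a median of -0.11. Their mean level was 4.68 to 4.83 in wild type control, 4.52 to 4.71 in wild type Norrin, 3.44 to 3.55 in Fz4-/- control and 3.35 to 3.36 in Fz4-/- Norrin arrays, thus higher in wild type co-cultures with either HEK293 line. Its part in the matrix results was not tested. Of 10 macrophage and leukocyte markers Cd68, a lysosomal glycoprotein, passed as higher (1.95 ± 0.30, SE, adjusted p = 0.00124). Cd68 was at 5.08, 6.20 and 6.17 in wild type control, 3.29, 3.80 and 3.51 in wild type Norrin and between 7.02 and 7.58 in Fz4-/- arrays, while Ptprc, Adgre1, Itgam and Aif1, which define leukocytes or macrophages, were at the floor in all 4 groups. With values raised to the floor the difference of Cd68 was 1.39 (adjusted p = 0.0505).

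Of 10 smooth muscle and pericyte markers Acta2 passed, and of 10 retinal neuron markers Thy1. Among 9 glial, 8 pigment epithelium and 11 kidney epithelium or HEK293 markers none passed in limma, and 0, 0 and 1 were at an unadjusted p below 0.05. Pax8, a kidney transcription factor among the last, was at 4.59 to 5.44 in wild type arrays and 2.30 to 2.53 in Fz4-/- arrays, with a difference of -0.57 ± 0.17 (SE, adjusted p = 0.116). The mean level of the kidney and HEK293 list was 4.30 to 4.44 and 4.19 to 4.28 in wild type control and Norrin arrays, and 3.76 to 3.78 and 3.60 to 3.63 in Fz4-/- arrays. The part of human RNA in any of the values above was not tested.

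The same contrast was taken for Matrigel in the single cultures of both genotypes, where 3 of 18193 genes passed in limma (0.0165%), beside 385 for Norrin in the co-cultures. Both have 3 arrays per group and 8 residual degrees of freedom, but the cultures and the medians of their arrays differ, and the counts were not tested against each other.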

How the data were processed

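The deposited table held log2 RMA intensities of 45101 probe sets on 24 arrays, made by the authors with RMA (background correction, quantile normalization and probe summary), per the submitters' processing notes. The version, and which arrays were normalized together, are not given in the sources used here. The number of arrays limits the precision.

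Control probe sets (64) and those with several symbols (932) or none (9160) were left out. Of 34945 with 1 symbol, 34741 were named by gene ID through RefSeq on GRCm38.p6, and a gene was represented by the probe set whose mean over the arrays was highest. The difference of responses was a contrast of a model with 4 group means in limma 3.58.1 (R 4.3.3), with empirical Bayes moderation, 8 residual degrees of freedom and Benjamini-Hochberg adjustment over all genes. The procedure was tested on simulated data. With 3 arrays against 3 the smallest exact p for a single gene is 0.1. The smaller p-values of the 4-group contrast rest on the limma model. The members, the 35 gene lists (524 of 545 genes measured) and the tests were chosen with earlier results of these data known. The rule names Fzd4 and Ndp, the 10 largest higher and lower differences past the threshold without overlap of responses, the 10 largest of each among genes above the floor, at most 3 genes past the threshold per list, and Cdh5, Axin2, Cldn5, Lef1, Plvap, Slc38a5 and the SoxF genes Sox7, Sox17 and Sox18. Further list members, and sets said to be chosen after their values were seen, are named beside them. The 6 uncharacterised genes among the 385 were counted and not named. RefSeq promoters matched 56 of the 86 named genes. Alternatives were other scalings, probe set choices, floors, variance models, a 2-fold minimum, a replicate block and left-out arrays. Figures used Python with matplotlib, pandas and numpy.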

Additional observations from a re-analysis of the deposited data

Results flagged for a closer look

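The responses of the genotypes to Norrin-expressing cells differed by limma's test of the difference itself in 385 genes, and the 75 of them named by rule are given here with their difference (log2, Fz4-/- minus wild type, adjusted p below 0.05). Inflammatory genes with a higher difference were Lcn2 (3.73), Selp (1.95), Cxcl2 (1.86), Sod2 (1.84) and Map3k8 (1.68), and further Ccl8 (1.63), Ptgs2 (1.56), Cebpd (1.47), Ccl5 (1.44) and Ccl2 (1.41). On the p53 and stress lists the higher genes were Pmaip1 (1.38), Mdm2 (1.14), Eda2r (0.94), Asns (1.01), Ddit4 (0.99) and Ddit3 (0.89). The interferon, YAP/TAZ and early response lists gave Atf3 (1.33), Gadd45b (0.96), Rsad2 (0.82), Arhgef17 (0.75), Ifit2 (0.74) and Oas3 (0.72). The receptors and matrix or lysosomal proteins with a higher difference were Dcn (2.60), Cd68 (1.95), Nrp2 (0.72), Lyve1 (0.70) and Fst (1.76), and the rest of the higher genes were Micall2 (1.77), Snhg12 (1.59), Snhg6 (1.39), Atxn7l1 (1.39) and Hk2 (1.25). Secreted and matrix proteins with a lower difference were Sparcl1 (-3.08), Sfrp2 (-2.79), Cthrc1 (-2.56), Ogn (-2.22), Lox (-1.66) and Ccn2 (-1.46), together with Plat (-1.23), Col3a1 (-0.94), Col5a2 (-0.89), Sfrp1 (-0.82) and Fgf18 (-0.91). Endothelial surface and barrier genes gave Ackr3 (-2.12), Nrp1 (-1.95), Clec14a (-1.84), Adgrl4 (-1.64), Cav1 (-1.40), Icam2 (-1.22), Tek (-1.07) and Abcg2 (-1.02). Transcription factors and kinases of endothelium gave Bmx (-1.24), Fli1 (-0.84), Elk3 (-0.76) and Lyl1 (-0.70). The Wnt receptor, BMP and sterol genes were Reck (-1.49), Fzd6 (-1.24), Lgr4 (-0.86), Smad6 (-1.21) and Id1 (-1.01), then Sqle (-1.71), Msmo1 (-1.36) and Stard4 (-1.25). The other lower genes were Tmem158 (-1.78), Flrt2 (-1.72), Hs3st1 (-1.72), Hsph1 (-1.58) and Tnfsf10 (-1.58), then Acta2 (-0.91), Thy1 (-0.91), Pfkfb3 (-0.89), Ldha (-0.75), Tk1 (-0.71), Pcna (-0.65) and Dusp1 (-0.69).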

How the results depend on the processing

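The 385 genes became 515 under quantile normalization of the 12 arrays, 292 after median centring and 450 after centring with a common interquartile range. They became 349 with probe sets averaged per gene and 343 among genes above the floor in all 4 groups. With all 24 arrays in 1 fit they were 279, and with a trended robust variance 423. A 2-fold minimum left 6 genes. Leaving out 1 array gave 232 to 562. Chosen after seeing the data, averaging replicates 2 and 3 gave 90, leaving out replicate 1 of both wild type groups 717 and array weights 422. With the 99th percentile as the floor, the genes past the threshold were 31 at the floor in a single group, 60 in all 4 and 12 in both wild type groups. Equal replicate numbers went together in some groups only: the correlation of deviations was 0.10 to 0.36 between the wild type groups and 0.14 to 0.37 between the Norrin groups, but -0.19 to 0.01 between the Fz4-/- groups and -0.05 to 0.07 between the control groups. The replicate block gave 471 genes with the number shared by all groups and 550 within genotype, and ended no call of a named gene. All 75 named genes past the threshold kept their direction in every alternative run, 61 stayed past it with each array left out, and 6 in every alternative. Of 11 not past it, Cdh5 and Sox18 passed in 3 alternatives each, Plvap in 2 and Sox17 in 1, and Lef1 turned to 0.0176 with its probe sets averaged. Slc38a5 was -0.21 to 0.0158 with 1 array left out, at 0.0158 without Fz4-/- control replicate 1 and 0.00373 without wild type control replicate 3. The cause was not tested. Signal over background limits the 95 of 385 genes at the floor in 1 or more groups.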

Other observations

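Host genes of small nucleolar RNAs, which were not on any list and were chosen after their values were seen, were higher in part. These genes carry snoRNAs in their introns, which guide the modification of ribosomal RNA. Of 16 measured (the Snhg genes, Gas5 and Zfas1), 9 passed as higher in limma, 0 as lower and 7 did not pass, with a median difference of 0.79, beside 0.874% of all genes past the threshold as higher. All 9 were among the 13 hosts above the floor in all 4 groups. Snhg12 was at 6.30, 6.24 and 6.61 in wild type control, 4.48, 4.89 and 5.21 in wild type Norrin, 6.14, 6.05 and 6.09 in Fz4-/- control and 6.10, 6.17 and 6.20 in Fz4-/- Norrin arrays, so the wild type Norrin arrays alone were low (difference 1.59 ± 0.21, SE, adjusted p = 0.000261). Zfas1 was at 9.03, 8.51 and 8.72, then 7.44, 7.47 and 7.52 in wild type, and between 7.91 and 8.10 in Fz4-/- arrays (1.31 ± 0.17, adjusted p = 0.000254). Snhg6 (1.39), Snhg1 (1.16), Snhg16 (1.00), Snhg8 (0.91), Snhg5 (0.90), Gas5 (0.82) and Snhg7 (0.76) were the others past the threshold. The arrangement of Snhg12 was not shared by all: in Snhg6 and Snhg16 the wild type control arrays were the high ones. Their means in wild type control, wild type Norrin, Fz4-/- control and Fz4-/- Norrin arrays were 7.92, 6.50, 6.59 and 6.55 for Snhg6. For Snhg16 they were 5.64, 4.59, 4.42 and 4.37.

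The group that stood apart was also counted after the values were seen. A group was taken as standing apart when its mean lay farther from the nearest other mean than the other 3 means lay from each other. Among the 130 higher genes above the floor in all 4 groups, wild type control stood apart in 63 (48.5%). Wild type Norrin did in 25 (19.2%), Fz4-/- control in 4 (3.08%) and Fz4-/- Norrin in 3 (2.31%). Among the 160 lower genes wild type control stood apart in 58 (36.25%) and wild type Norrin in 58 (36.25%). Fz4-/- control did in 0 and Fz4-/- Norrin in 1 (0.625%). Over all 9268 genes of that class the shares were 16.5%, 11.1%, 3.85% and 4.96%, in the same order. The choice of genes by their difference favours a single group standing apart, so these counts are a description and not a test. Sod2, Ccl5, Cav1, Icam2 and Ccn2 are genes in which wild type control stood apart, and Clec14a, Sqle, Asns and Mdm2 genes in which wild type Norrin did. With quantile normalization over the 12 arrays the counts for wild type control and Norrin were 60 and 27 of the higher genes, and 69 and 52 of the lower genes.

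A few genes outside the lists were named by the size of their difference. Micall2, an adaptor of Rab proteins, differed by 1.77 ± 0.26 (SE, limma adjusted p = 0.0008) with the mean of the wild type Norrin arrays at the floor. Atxn7l1 differed by 1.39 ± 0.27 (adjusted p = 0.00955), but its 5 other probe sets lay between -0.12 and 0.38.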
